A study of Mus musculus with 6 samples.

Results

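Transcript levels of 10 genes of metalloproteinases were followed in SVEC4-10 cells, an immortalised mouse line described as endothelial, with and without nattokinase. The genes are Adam9, Adam10, Adam12, Adam17 and Adam19 of the ADAM family and Adamts1, Adamts2, Adamts4, Adamts5 and Adamts9 of the ADAMTS family. They were picked by family name, with earlier results of these data known, and are 10 of the 55536 genes in each library. A further 35 genes of the same families were read beside them. Nattokinase is a serine protease of Bacillus subtilis that degrades fibrin, and it was present for 24 hours in the cultures behind 3 libraries. They are set against 3 libraries from untreated cells of the same line, and all cells were grown in DMEM with 10% fetal bovine serum. No dose was read from the labels. No label tells whether replicates were separate cultures, so every p-value measures only the spread among these samples, and that spread may be technical. The line is a single immortalised cell line, and no other endothelial cells were compared with it.

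ADAM and ADAMTS proteins are zinc-dependent proteases that are made as inactive precursors and activated by removal of a propeptide. ADAM proteins sit in the plasma membrane and release the outer parts of other membrane proteins, among them growth factor precursors, cytokines, Notch receptors and adhesion molecules, a process called ectodomain shedding. ADAMTS proteins are secreted, carry thrombospondin repeats that hold them in the extracellular matrix, and cut proteoglycans such as versican and aggrecan or the ends of procollagens. In blood vessels, members of both families take part in growth factor release, inflammation and matrix turnover.

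The catalytic stretch that makes these proteins metalloproteinases is shown first, because every member carries it and its letters differ between members of the same family. Each line gives the 33 coding bases, 11 codons, of the zinc-binding stretch on the coding strand, 5′ to 3′, from the GENCODE M21 transcripts (GRCm38). Capitals mark the codons of the 3 zinc-binding histidines and of the catalytic glutamate.
Adam9: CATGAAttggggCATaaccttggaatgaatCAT
Adam10: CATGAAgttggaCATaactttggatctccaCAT
Adam12: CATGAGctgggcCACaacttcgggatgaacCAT
Adam17: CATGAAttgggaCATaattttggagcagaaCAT
Adam19: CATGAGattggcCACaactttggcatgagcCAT
Adamts1: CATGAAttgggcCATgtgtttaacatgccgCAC
Adamts2: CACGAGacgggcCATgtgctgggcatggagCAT
Adamts4: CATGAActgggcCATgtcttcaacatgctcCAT
Adamts5: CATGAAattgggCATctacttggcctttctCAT
Adamts9: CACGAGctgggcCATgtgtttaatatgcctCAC
For each gene a transcript with the stretch was preferred, and each of the 10 chosen transcripts held 1. The search allowed only glycine or asparagine at the eighth codon. That codon encodes glycine in 7 members and asparagine in 3, which are Adamts1, Adamts4 and Adamts9. Of the 33 bases, 20 to 28 were identical between pairs of ADAM genes, 18 to 28 between pairs of ADAMTS genes, and 15 to 24 between an ADAM and an ADAMTS gene. The stretch of Adam12 lies on chromosome 7, chr7:133961158-133961190 on the minus strand, in exon 11 of 23. The stretch of Adamts1 is split between exons 3 and 4 of 9. Those of Adam10, Adamts2, Adamts4, Adamts5 and Adamts9 are also split between exons.

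Levels are given as FPKM, reads scaled to exon length and to the reads assigned in each library, the unit of the deposited values. Between 15044778 and 18341370 reads per library lay behind them, and 3 reads, the limit that a count of 0 allows, correspond to 0.0818 to 0.0997 FPKM for a gene with 2 kb of exons, for counting error only. Genes reaching 1 FPKM in 3 or more libraries were tested with limma on log2(FPKM + 1), two-sided, and all adjusted p-values are Benjamini-Hochberg values over the 10913 genes tested. Log2 fold changes are on the log2(FPKM + 1) scale, so that changes of low genes come out too small, and are nattokinase minus control. Of the 10 members 9 were tested and 1, Adamts4, lay below the filter. At an adjusted p of 0.05, 4 of the 9 rose with nattokinase and 0 fell. Over all tested genes 8.85% were called, 5.61% as higher and 3.24% as lower. The 3 nattokinase libraries lay apart from the 3 controls for 6 of the 9 tested members, against 28.8% of all tested genes. The median log2 fold change of the 9 members was 0.17, and that of all tested genes was 0.01. Whether fewer cells of a kind or less RNA per cell lies behind a level cannot be told apart in such bulk samples.

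**Figure D1:**
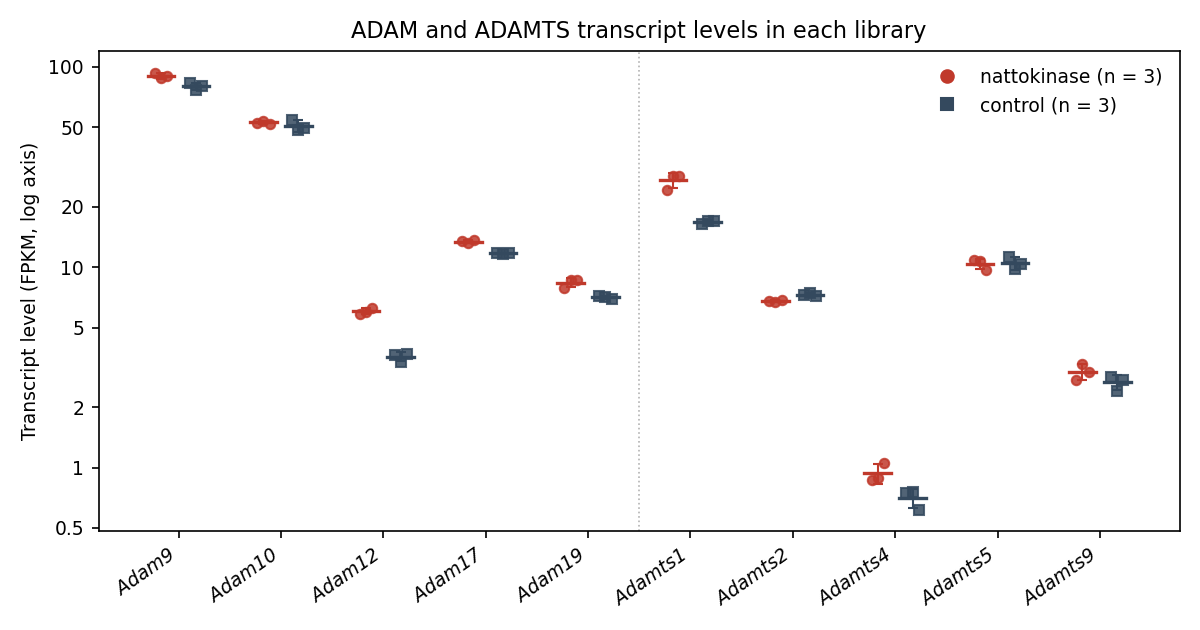
Transcript level of each member in every library, in FPKM on a log axis, with nattokinase libraries as circles and control libraries as squares; bars give the mean and SD of 3 libraries. Adam12 and Adamts1 show the widest gaps between the groups, and Adam10, Adamts5 and Adamts9 overlap.

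The first principal component, with 42.1% of the variance, separated the groups, and the second, with 20.3%, set control replicate 1 apart. Several facts of the libraries moved with the groups. A set of 6 rRNA-like genes, chosen with its values known, took 0.763% ± 0.051 of reads in the nattokinase libraries and 3.35% ± 0.73 in the controls (SD, n = 3 each). Of 12 endothelial markers 0 reached 1 FPKM in any library, and Tie1, Emcn, Erg and Cldn5 had 0 reads throughout, which goes against the label, whereas the lymphatic markers Pdpn and Flt4 were tested. The summed level of 8 fibroblast and mural markers was 1849 to 1920 FPKM in the nattokinase libraries and 2067 to 2215 FPKM in the controls. Collagen genes made up most of that sum, while Pdgfra (7.88 to 8.70 FPKM with nattokinase and 7.23 to 7.67 FPKM in the controls) and Pdgfrb (17.9 to 21.2 FPKM with nattokinase and 16.5 to 17.8 FPKM in the controls) were higher in every treated library but did not pass (adjusted p = 0.17 and 0.12). Of the same 8 markers, Thy1 had 0 reads in all 6 libraries and Lum had 0 to 10 reads per library. The 4 leukocyte markers summed to 2.1 to 2.76 FPKM with nattokinase and 0.904 to 1.56 FPKM in the controls. Of these, Ptprc and Itgam had 0 reads in all 6 libraries, and Cd68, with 16 to 63 reads, made up most of the sum and rose (adjusted p = 0.0094). The 4 lymphatic markers summed to 110 to 115 FPKM with nattokinase and 125 to 136 FPKM in the controls, with Pdpn lower (adjusted p = 0.027) and Prox1 and Lyve1 at 0 reads. The summed levels of the endothelial and of the 4 epithelial markers overlapped between the groups. The part of these differences in the results on the proteases was not tested.

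The members stood in nearly the same order of level in both groups, with Adam9 and Adam10 at the top. In nattokinase-treated cells the order ran Adam9, Adam10, Adamts1, Adam17, Adamts5, Adam19, Adamts2, Adam12, Adamts9 and Adamts4, and no 2 neighbours overlapped. In control cells it was the same apart from Adamts2 standing above Adam19, and the ranges of these 2 genes overlapped. Adam9 and Adam10 together held 65.3% ± 1.28 of the summed FPKM of the 10 members with nattokinase and 68.4% ± 0.69 in the controls. The 5 ADAM genes summed to 171 ± 2.1 FPKM with nattokinase and 153 ± 6.36 FPKM in the controls, and the 5 ADAMTS genes to 48.3 ± 2.41 FPKM with nattokinase and 38.0 ± 0.66 FPKM in the controls (SD, n = 3 each). These sums are descriptions and were not tested.

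Adam12 showed the clearest change among the membrane sheddases. Adam12, also called meltrin alpha, is a protease of mesenchymal and regenerating tissue that can release the growth factor HB-EGF. It lies on chromosome 7 from 133883199 to 134232146 on the minus strand (GRCm38). Its level was 5.86, 6.01 and 6.29 FPKM in nattokinase replicates 1, 2 and 3 and 3.66, 3.37 and 3.70 FPKM in control replicates 1, 2 and 3. All treated libraries lay above all controls, from 1114 to 1220 reads per library with nattokinase and 536 to 646 reads in the controls. The mean rose 1.69-fold, to 6.05 ± 0.22 FPKM with nattokinase against 3.58 ± 0.18 FPKM in the controls (log2 fold change 0.62, SE 0.060, adjusted p = 0.00032). The call was made in all 14 alternative settings, with a log2 fold change of 0.59 to 0.76. Ranked by signed log2 fold change, with the most raised gene first, it stood at place 70 of 10913 tested genes.

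Adam17 and Adam19 rose by smaller steps. Adam17, the TNF-converting enzyme, also releases ligands of the EGF receptor. It had 13.5, 13.1 and 13.6 FPKM in the nattokinase libraries and 11.8, 11.6 and 11.8 FPKM in the controls, with no overlap. Its mean was 13.4 ± 0.26 FPKM with nattokinase and 11.7 ± 0.083 FPKM in the controls, 1.14-fold higher (log2 fold change 0.18, SE 0.046, adjusted p = 0.039). Adam19, meltrin beta, is a protease that acts on neuregulin and is needed in the developing mouse heart. It had 7.88, 8.59 and 8.68 FPKM in the nattokinase libraries and 7.16, 7.08 and 6.97 FPKM in the controls. The groups did not overlap, and the mean was 1.19-fold higher, at 8.38 ± 0.44 FPKM with nattokinase and 7.07 ± 0.097 FPKM in the controls (log2 fold change 0.22, SE 0.056, adjusted p = 0.040). These 2 calls lie close to the threshold. Under median-of-ratios scaling the adjusted p was 0.051 for Adam17 and 0.053 for Adam19, and with protein-coding totals made equal it was 0.082 and 0.076. Adam17 lost its call without any 1 library other than control replicate 1, with adjusted p up to 0.14. Adam19 lost it when control replicate 2, control replicate 3, nattokinase replicate 2 or nattokinase replicate 3 was left out, and its adjusted p then reached 0.15. Of the 7154 exon bases of Adam17, 311 are shared with Iah1 on the opposite strand, which had a log2 fold change of −0.02 (adjusted p = 0.90). Use of strand in counting is not stated. The antisense genes Gm16033 and Gm16034, which overlap Adam19, had at most 1 read in any library.

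Adam9 and Adam10, the most abundant members, did not pass the test. Adam9, meltrin gamma, is a broadly expressed sheddase. It had 93.6, 87.6 and 89.6 FPKM in the nattokinase libraries and 82.7, 77.0 and 80.0 FPKM in the controls. These values did not overlap, and the log2 fold change was 0.17 (SE 0.048, 95% interval 0.07 to 0.28, adjusted p = 0.053). Adam9 passed in 2 of the 14 alternative settings, limma-voom on the recovered reads (adjusted p = 0.017) and without control replicate 1 (adjusted p = 0.021), and its adjusted p reached 0.18 without control replicate 2. Adam10, the main protease that opens Notch receptors for signalling and the alpha-secretase of the amyloid precursor, had 52.5, 53.9 and 52.0 FPKM in the nattokinase libraries and 54.4, 48.1 and 49.5 FPKM in the controls. The groups overlapped, and the log2 fold change of 0.06 had a 95% interval of −0.06 to 0.18 (adjusted p = 0.56). Control replicate 1 held the highest Adam10 level of all 6 libraries. The controls of Adam10 varied with a coefficient of variation of 6.50%, beside 1.52% from counting error alone at this depth.

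**Figure D2:**
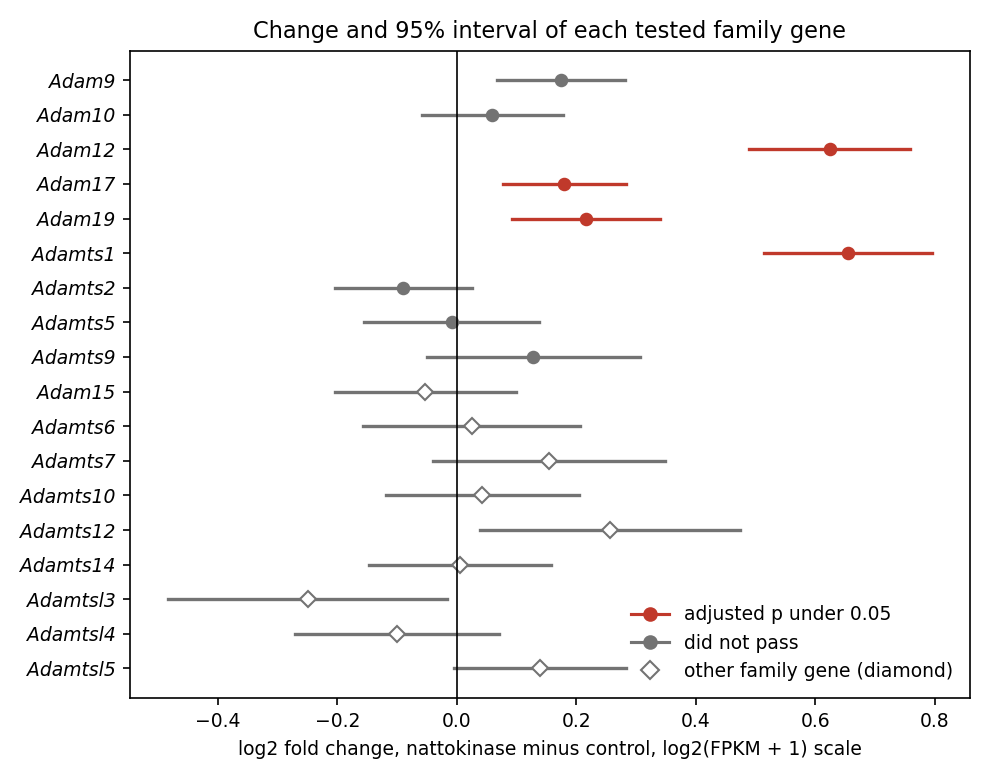
Log2 fold change, nattokinase minus control, on the log2(FPKM + 1) scale, with its 95% interval, for the 9 tested members (circles) and 9 other tested genes of the families (diamonds); red marks an adjusted p under 0.05. Adam12 and Adamts1 stand at 0.62 and 0.65, and the other 16 genes lie between −0.25 and 0.26.

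Among the secreted enzymes Adamts1 rose and the others did not pass. Adamts1 cuts versican and aggrecan and restrains new vessel growth through its thrombospondin repeats. It lies on chromosome 16 from 85793827 to 85803113 on the minus strand. Its level was 24.4, 28.5 and 28.5 FPKM in nattokinase replicates 1, 2 and 3 and 16.5, 16.9 and 17.1 FPKM in control replicates 1, 2 and 3. Every treated library lay above every control, and nattokinase replicate 1 was the lowest of the treated. The mean was 1.61-fold higher, at 27.1 ± 2.40 FPKM with nattokinase and 16.8 ± 0.31 FPKM in the controls (log2 fold change 0.65, SE 0.063, adjusted p = 0.00032). All 14 alternative settings called it, with a log2 fold change of 0.62 to 0.73, and in the same signed ranking it stood at place 63 of the 10913 tested genes. Adamts1 made up 56.1% ± 2.36 of the summed FPKM of the 5 ADAMTS members with nattokinase and 44.3% ± 1.42 in the controls.

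Adamts5 lies next to Adamts1 on the same strand, 53059 bp away with 0 protein-coding genes between. Adamts5, the main aggrecan-cutting enzyme of mouse cartilage, had 10.8, 10.7 and 9.71 FPKM in the nattokinase libraries and 11.3, 9.75 and 10.4 FPKM in the controls. The groups overlapped throughout, and the log2 fold change was −0.01, with a 95% interval of −0.16 to 0.14 (adjusted p = 0.96). The interval of Adamts1, 0.51 to 0.79, does not meet it. The ratio of Adamts1 to Adamts5 within a library was 2.25, 2.67 and 2.94 with nattokinase and 1.46, 1.73 and 1.64 in the controls, without overlap. That ratio was not tested.

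Adamts4 and Adamts9, which like Adamts1 carry the asparagine codon, were low. Adamts4, an aggrecan-cutting enzyme induced by inflammatory signals, had 0.865, 0.890 and 1.05 FPKM with nattokinase, or 75, 75 and 93 reads, and 0.744, 0.760 and 0.618 FPKM in the controls, or 58, 55 and 49 reads. The groups did not overlap, but only nattokinase replicate 3 reached 1 FPKM, so the gene was not tested. With the filter lowered to 0.1 FPKM its log2 fold change was 0.18 (limma adjusted p = 0.29). Adamts9, a versican-cutting enzyme, had 2.72, 3.30 and 3.01 FPKM with nattokinase and 2.85, 2.40 and 2.75 FPKM in the controls. Its groups overlapped, with a log2 fold change of 0.13 and a 95% interval of −0.05 to 0.31 (adjusted p = 0.38).

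Adamts2, the enzyme that removes the amino-terminal propeptide of fibrillar procollagens, was the only tested member other than Adamts5 with a negative log2 fold change. It had 6.77, 6.72 and 6.88 FPKM in the nattokinase libraries and 7.24, 7.46 and 7.16 FPKM in the controls. All treated libraries lay below all controls, yet the difference was small and did not pass (log2 fold change −0.09, SE 0.051, 95% interval −0.20 to 0.02, adjusted p = 0.34).

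**Figure D3:**
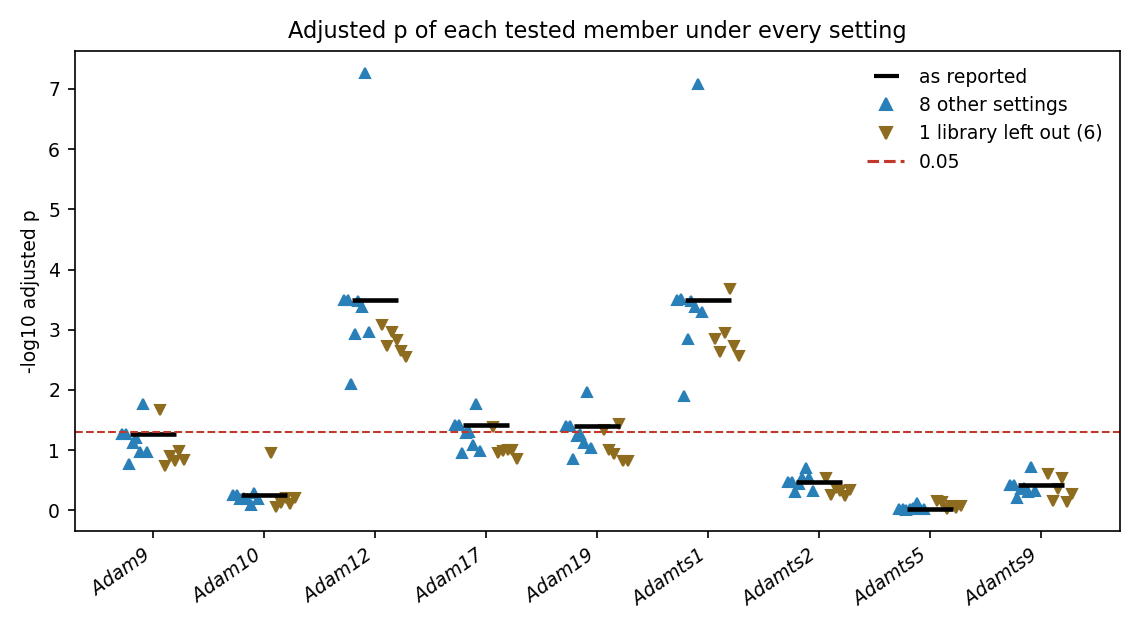
Adjusted p of the 9 tested members as −log10, where higher is smaller p; black bars are the values reported, blue triangles the 8 other settings, brown triangles the 6 fits without 1 library, and the dashed line is 0.05. Adam12 and Adamts1 lie above the line in every fit, Adam9, Adam17 and Adam19 on both sides of it, and the other 4 below it.

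Promoter sequences were found in the RefSeq table (GRCm38.p6) for 6 of the 10 members, with 8 start sites; Adam9, Adam12, Adamts4 and Adamts5 had no entry. Adamts1, which rose, and Adam10, which did not pass, are shown because their promoters held the same number of the searched motifs. The motif is GGGCGG, the core bound by Sp-family factors, searched on both strands and in capitals here. Each line gives the 250 bases upstream of the start, on the gene's strand, chr16:85803114-85803363 (minus) for Adamts1 and chr9:70678732-70678981 (plus) for Adam10.
Adamts1: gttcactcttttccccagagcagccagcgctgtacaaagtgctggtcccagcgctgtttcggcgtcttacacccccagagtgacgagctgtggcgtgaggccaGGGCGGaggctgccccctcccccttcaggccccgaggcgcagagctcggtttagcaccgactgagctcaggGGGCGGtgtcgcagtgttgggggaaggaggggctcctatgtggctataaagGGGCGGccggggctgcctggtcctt
Adam10: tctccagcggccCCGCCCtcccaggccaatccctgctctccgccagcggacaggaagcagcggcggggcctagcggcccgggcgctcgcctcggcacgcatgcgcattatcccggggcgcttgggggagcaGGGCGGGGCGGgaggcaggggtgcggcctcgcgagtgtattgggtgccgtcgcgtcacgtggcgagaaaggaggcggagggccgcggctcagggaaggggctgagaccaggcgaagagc
Both windows held 3 matches, and in Adam10 the last 2 overlap by 1 base. Adamts2 held 5, Adam17 and Adamts9 held 1 each, and the 3 start sites of Adam19 held 0. Of 32851 promoter windows of the same length 32.7% held at least 1 match. TGANTCA, the AP-1 site, and GGAATG, the TEAD site, were found once each in 1 of the 3 Adam19 windows and in no other member's window, against 6.75% and 12.6% of all windows. TGACGTCA and the CArG box, present in 1.55% and 1.47% of windows, were found in 0 of the 8. A match of letters is a description of the window and no evidence of binding.

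The 35 other family genes on the list, which need not cover both families, were mostly low or silent in these cells. Of them 9 were tested, 0 passed, and 7 had 0 reads in all 6 libraries. Adamts12, a matrix protease with a thrombospondin-rich tail, had 2.27, 1.96 and 2.14 FPKM with nattokinase and 1.95, 1.59 and 1.33 FPKM in the controls, barely apart (log2 fold change 0.26, adjusted p = 0.15). Among the alternative settings it passed with limma-voom (adjusted p = 0.022) and with limma without control replicate 1 (adjusted p = 0.042). Adamtsl3, an ADAMTS-like protein without a protease domain, had a log2 fold change of −0.25 (adjusted p = 0.19), Adamtsl5 0.14 (adjusted p = 0.23), Adamts7 0.15 (adjusted p = 0.33) and Adam15 −0.05 (adjusted p = 0.71). When the filter was lowered to 0.1 FPKM, where 5.00% of 15282 genes were called, 17 of the 35 could be tested and 1 passed. That gene was Adamts20, known for a role in mouse coat pigmentation, at 0.764, 1.02 and 0.927 FPKM with nattokinase and 0.480, 0.451 and 0.526 FPKM in the controls, or 124 to 161 reads with nattokinase and 61 to 78 reads in the controls. Its groups did not overlap, and the mean was 1.86-fold higher (limma adjusted p = 0.049). The log2 fold change of 0.36 comes out too small at this low level, being on the log2(FPKM + 1) scale.

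The partners that bring ADAM and ADAMTS proteins to maturity showed no called change. Of 16 listed genes 14 were tested and 0 passed, with a median log2 fold change of −0.03. Furin, the convertase that removes the propeptide of many members, averaged 12.1 ± 0.40 FPKM with nattokinase and 12.9 ± 0.37 FPKM in the controls (log2 fold change −0.09, 95% interval −0.20 to 0.03, adjusted p = 0.34). Rhbdf1 and Rhbdf2 encode the iRhom proteins that carry ADAM17 to the cell surface. They had log2 fold changes of 0.08 and 0.10 (adjusted p = 0.37 and 0.35), and the convertase gene Pcsk5 had −0.14 (adjusted p = 0.38).

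**Figure D4:**
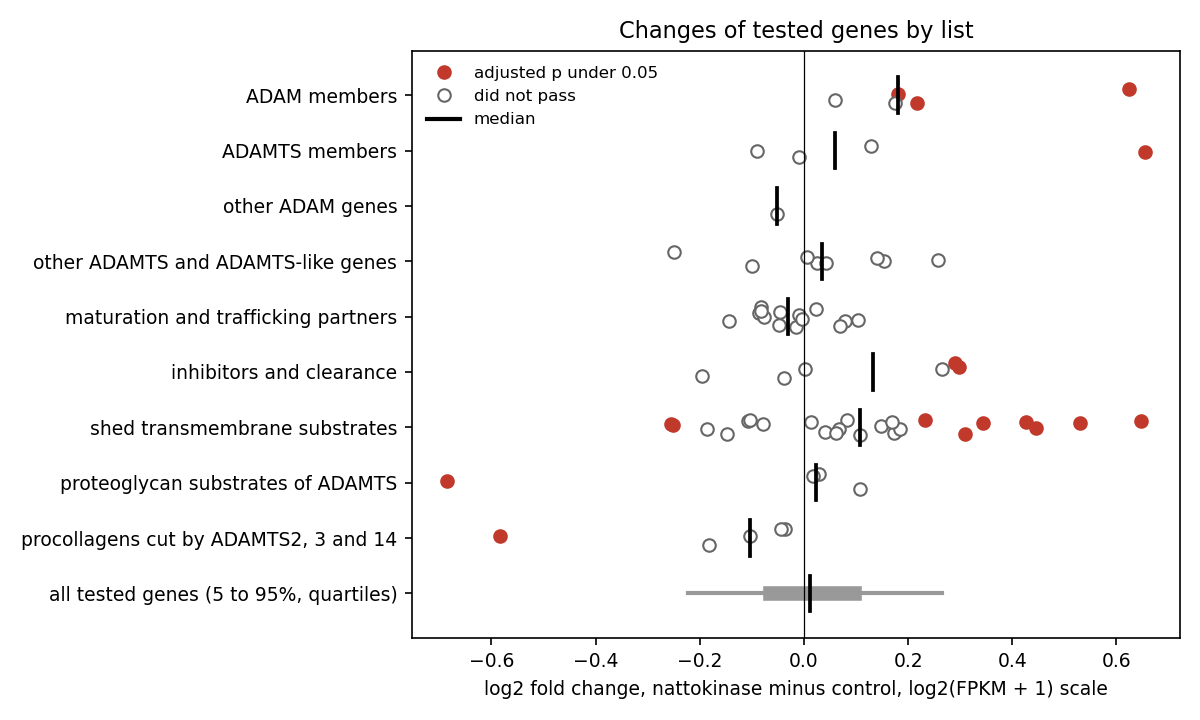
Log2 fold change, nattokinase minus control, of every tested gene in each list, with red for an adjusted p under 0.05, open circles for genes that did not pass and a black bar for the median; the grey bar shows all 10913 tested genes from the 5th to the 95th percentile, −0.22 to 0.26. Most called genes among the lists lie in the members and in the shed substrates, which are the largest list, with 25 tested genes.

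Of 8 listed inhibitors and clearance genes 6 were tested, 2 rose and 0 fell, where 5.61% of all tested genes were called higher and 3.24% lower. Timp2, a tissue inhibitor of metalloproteinases, had 293, 307 and 318 FPKM with nattokinase and 246, 258 and 247 FPKM in the controls, apart in all libraries (log2 fold change 0.29, SE 0.051, adjusted p = 0.0068). Without nattokinase replicate 3 its adjusted p was 0.051. The other was Lxn, latexin, which is known as an inhibitor of carboxypeptidases and not of these enzymes (log2 fold change 0.30, adjusted p = 0.022). Its call was lost when control replicate 2 or a single nattokinase library was left out, where the adjusted p reached 0.095. Timp3, the inhibitor that acts best on ADAM17 and the aggrecanases, averaged 264 ± 12.5 FPKM with nattokinase and 271 ± 8.72 FPKM in the controls (log2 fold change −0.04, adjusted p = 0.73), and was named for its role after its value was seen. Timp1 had a log2 fold change of 0.27 (adjusted p = 0.12). Lrp1, the endocytic receptor that clears several secreted proteases, had −0.20 (adjusted p = 0.32).

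Among 37 genes of shed membrane proteins 25 were tested, 8 rose and 2 fell, with a median log2 fold change of 0.11. Over all tested genes 5.61% were called higher and 3.24% lower, with a median of 0.01. The list was chosen with earlier results of these data known, so its count describes only the genes on it. Nrg1, the neuregulin precursor cut by ADAM17 and ADAM19, had 9.23, 9.81 and 9.32 FPKM with nattokinase and 5.98, 5.47 and 5.58 FPKM in the controls. The gap was far wider than the spread within either group (1.67-fold, log2 fold change 0.65, SE 0.056, adjusted p = 0.00018). Jag1, a Notch ligand, had 7.73, 6.97 and 7.02 FPKM with nattokinase and 5.41, 5.06 and 4.92 FPKM in the controls (log2 fold change 0.43, adjusted p = 0.0024). Cx3cl1, a membrane-bound chemokine that ADAM10 and ADAM17 release, had 6.02, 5.91 and 5.97 FPKM with nattokinase and 4.03, 4.48 and 3.84 FPKM in the controls (log2 fold change 0.45, adjusted p = 0.0021). Vcam1, an adhesion molecule that ADAM17 sheds, had a log2 fold change of 0.53 (adjusted p = 0.00026). Hbegf, whose product is a shed EGF receptor ligand, rose 1.33-fold to 6.35 ± 0.31 FPKM with nattokinase, against 4.79 ± 0.31 FPKM in the controls (adjusted p = 0.0084). The 2 genes that fell were Tnfrsf1b, a TNF receptor (log2 fold change −0.25, adjusted p = 0.013), and Efna2, an ephrin (−0.25, adjusted p = 0.018). Both lost their call without control replicate 2 or nattokinase replicate 2, and Efna2 also without nattokinase replicate 1 (adjusted p up to 0.075). Hbegf, Tnfrsf1b and Efna2 were named after their values were seen. These are transcript levels, and no shed protein was measured.

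Among the genes of matrix substrates Vcan and Col3a1 fell. Over all tested genes 3.24% were called lower and 5.61% higher. Of 8 genes on the list of proteoglycan substrates, which also holds the matrilin gene Matn3, 4 were tested, 1 fell and 0 rose. Vcan, which encodes versican, a substrate of Adamts1, Adamts4, Adamts5 and Adamts9, had 3.90, 3.29 and 3.37 FPKM with nattokinase and 7.30, 5.78 and 5.79 FPKM in the controls. It fell to 0.559 of the control mean, with no overlap between the groups (log2 fold change −0.69, SE 0.091, adjusted p = 0.0016). Bgn, Dcn and Fmod, which encode small leucine-rich proteoglycans, had log2 fold changes of 0.11, 0.03 and 0.02 (adjusted p = 0.24, 0.78 and 0.92). Of 6 procollagen genes whose products Adamts2 and its relatives trim, 5 were tested, 1 fell and 0 rose. Col3a1, the type III collagen chain, had 96.9, 95.9 and 94.6 FPKM with nattokinase and 146, 141 and 145 FPKM in the controls (log2 fold change −0.58, SE 0.043, adjusted p = 7.7e-05). Col1a1 had a log2 fold change of −0.18 (adjusted p = 0.084), Col5a1 −0.10 (adjusted p = 0.25) and Col5a2 −0.04 (adjusted p = 0.64).

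**Figure D5:**
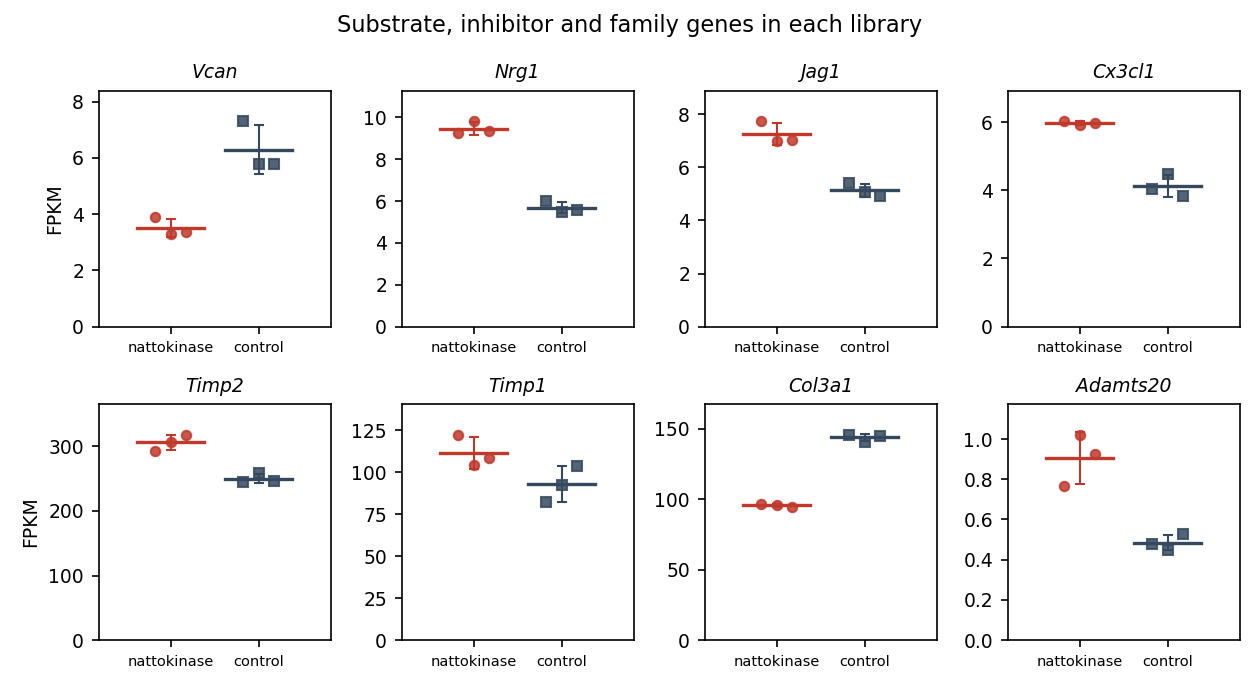
FPKM on a linear axis from 0 in each library for 8 genes of the substrate, inhibitor and family lists, nattokinase left and control right, with the mean and SD of 3 libraries. Vcan and Col3a1 are lower with nattokinase and Nrg1, Jag1, Cx3cl1 and Timp2 higher, while Timp1 did not pass and Adamts20 was tested only with the lower filter.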

How the data were processed

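RNA from 6 samples of SVEC4-10 cells was sequenced, 3 per group, and groups and replicate numbers come from the sample titles. The authors deposited FPKM per Ensembl gene, 1 file per sample. The unit was found from the values: each value times the merged exon length in GENCODE M21, divided by what a single read is worth in that library, came out as a whole number of reads, to within 0.05, for 100% of values. All 55536 identifiers matched M21 (GRCm38). The submitters' processing notes name, without roles, DESeq2 1.22.1, featureCounts 1.6.0, HISAT2 2.1.0 and Trimmomatic 0.38, and the human build GRCh38, although the identifiers are from mouse. Strandedness is not stated, so reads of overlapping genes cannot be told apart.

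Log2(FPKM + 1) values were fitted with limma 3.58.1 in R 4.3.3 on group (trend, robust prior). Members, lists and tests were chosen with earlier results of these data known. All members are named, and in each list the 4 tested genes with the smallest p. The planned protein features were not analysed here. The fit was also run on simulated data, where 19 of 187 calls, or 10.2%, were false, above the nominal threshold of 0.05. Of 50 genes changed 1.25-fold, the smallest change simulated, 24 were called. The rises of Adam17, 1.14-fold, and Adam19, 1.19-fold, were smaller than any simulated. Same-numbered libraries had correlations of −0.09, −0.04 and −0.06 in their deviations from the group means. These values show no pairing by number but cannot exclude it, and no label tells whether samples were paired. Mean chi-square per gene between replicates was 2.43 to 10.7, above the value near 1 of counting error. The files held 0 columns of other samples. Figures were drawn with matplotlib 3.10.9. Not every gene that overlaps a member is reported here.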

Additional observations from a re-analysis of the deposited data

How the results depend on the processing

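Adam12 and Adamts1 were called higher in all 14 alternatives; of the members called, Adam17 kept its call in 4 and Adam19 in 5, and Adam10, Adamts2, Adamts5 and Adamts9 were called in 0. The number of members that rose, 4 as reported, was 2 without a filter on low values, with the filter at 0.1 FPKM, with median-of-ratios scaling, with equal protein-coding totals and with the replicate number as a block; the cause was not tested. Leaving out 1 library gave 2 to 5 members: control replicate 1 left out gave 5, nattokinase replicate 1 left out gave 3, and each of the others gave 2. Over all genes 612 rose and 354 fell; 221 and 109 did so without a filter, where 24549 genes were tested, and 328 to 720 and 197 to 486 without 1 library. The block left 439 and 249 calls. The samples share only a number, and no label tells whether they were paired. Without a filter 1 inhibitor gene rose, 4 shed substrates rose and 0 fell. In the list of other ADAMTS genes 1 rose with the filter at 0.1 FPKM, Adamts20, and 1 with limma-voom, Adamts12. Of procollagen genes 2 fell with equal protein-coding totals and with limma-voom. Leaving out 1 library gave 0 to 3 inhibitor genes and 0 to 1 other ADAMTS genes higher, and 1 to 2 procollagen genes and 0 to 2 shed substrates lower. Equal protein-coding totals moved the split of all calls to 478 higher and 497 lower. Among the genes of the lists 62 calls were lost and 16 gained over all alternatives, and 0 called genes changed direction. Depth limits Adamts4, at 49 to 93 reads per library.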

Other observations

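The level of Adamts1, the member with the smallest p, was matched across the 6 libraries by many other genes. The 3 genes with the highest correlation among the 10823 searched were Pawr, a gene of a pro-apoptotic regulator, Plekho2 and Ets2, a transcription factor gene, with Pearson's r of 0.998, 0.998 and 0.997 on log2(FPKM + 1). Pawr averaged 79.2 ± 6.39 FPKM with nattokinase and 54.8 ± 1.6 FPKM in the controls, and Ets2 17.7 ± 0.66 FPKM with nattokinase and 13.9 ± 0.085 FPKM in the controls (SD, n = 3 each). A correlation of at least 0.9 was reached by 689 genes, and the 6 points fall into the 2 groups, so these values describe a shared group difference and carry no test. Adamts16 was singled out after its values were seen. It had 3, 6 and 3 reads in the nattokinase libraries and 15, 17 and 15 reads in the controls, without overlap. Its mean FPKM with nattokinase was 0.227 of the control mean. With the filter at 0.1 FPKM it did not pass (log2 fold change −0.15, limma adjusted p = 0.28). At so low a level the log2(FPKM + 1) scale makes the fold change come out too small. Adamts3, an enzyme that trims procollagen, had 0.327, 0.399 and 0.331 FPKM with nattokinase and 0.829, 0.539 and 0.514 FPKM in the controls (limma adjusted p = 0.18 with that filter).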
